A study of Danio rerio with 4 samples.

Results

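The genes described are the suppressors of cytokine signalling (SOCS) and the related gene *cish*, in whole zebrafish larvae with and without disruption of *grwd1*. The rule named 10 genes by symbol, and copies written with or without the letter a or b were counted and kept apart by their Ensembl gene ID. It found 11 genes of the 32520 in the count table, and 10 of the 11 passed the filter on low counts. The family was chosen by measured values of these same libraries, namely the counts in wt and crispant larvae, so the differences of its members between the groups are given as a description with no test.

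RNA was sequenced from whole larvae at 8 days post fertilization (dpf), as 2 libraries of wt and 2 of *grwd1* crispants, and 15 larvae were pooled for each group. Crispants are the injected generation (F0) and are mosaic, so a pool holds edited and unedited cells. They had received 100 pg of each of 2 guide RNAs against *grwd1* and 150 pg of Cas9 mRNA at the one-cell stage, and whether wt embryos were injected is not stated. *GRWD1* encodes a WD40 repeat protein required for assembly of the large ribosomal subunit, and the comparison asks which mRNAs differ when the gene is disrupted. Whether the 2 libraries of each group were made from different pools of larvae is not stated, and the spread between them, and every p-value based on it, may be technical. The guides are shown because they define the crispant group, each written 5′ to 3′ as the sample labels give it, without the PAM.
gRNA1: gatacatgcggtaagcggag
gRNA2: actccaccgacagatcccat

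SOCS proteins close a negative feedback loop on cytokine and hormone signalling. A ligand brings its receptor chains together, the Janus kinases (Jak) bound to them phosphorylate the receptor and a Stat factor, and the Stat dimer enters the nucleus and switches on target genes, SOCS genes among them. SOCS proteins hold an SH2 domain that binds phosphorylated tyrosines and a SOCS box that recruits elongin B, elongin C and Cullin5, a ubiquitin ligase. In mammals, SOCS1 and SOCS3 also inhibit Jak kinases directly, and SOCS3 is known for limiting signals through gp130, the receptor chain shared by interleukin 6 and its relatives.

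The deposited values were raw counts of reads per gene, and the library totals were 15916216 to 18619802 counts. CPM below are counts scaled to library size with TMM factors (0.971 to 1.04), an error is the SD over n = 2 libraries, and log2 fold changes are crispants over wt from edgeR. *grwd1* itself (ENSDARG00000004806) was lower in both crispant libraries, at 6.40 and 6.34 CPM against 24.98 and 24.1 CPM in wt, a log2 fold change of -1.94 (SE 0.18, edgeR adjusted p = 3.25e-14). Over the 20479 genes tested, 1839 were higher and 1524 lower in crispants at an edgeR adjusted p of 0.05 or less, so 54.7% of the calls were higher, against 70.2% (2355 higher, 1000 lower) when library totals replaced TMM factors. Duplicates differed beyond counting error (chi-square per degree of freedom 4.47 in wt, 5 in crispants).

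One copy of *socs3* was higher in crispants and the rest of the family lay close to its wt level. Of the 10 members tested, 1 was called higher and 0 lower, beside 8.98% of all genes called higher and 7.44% called lower, and since the members were chosen on this contrast nothing is read from these shares. The 2 groups of libraries did not overlap in 4 members, 2 of them higher and 2 lower in crispants. Over all genes tested, 28.1% did not overlap and were higher and 26.5% did not overlap and were lower. The median log2 fold change was -0.12 over the 10 members and 0.0046 over all genes tested. In whole larvae, fewer cells of a type and less RNA per cell cannot be told apart, in either direction.

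*socs3* ENSDARG00000025428 encodes one of the zebrafish copies of SOCS3, the inhibitor of gp130 signals. The name table gives the symbol *socs3* to this ID and to ENSDARG00000026611 and does not say which is *socs3a* and which *socs3b*, so both are named by ID. ENSDARG00000025428 had 1344 and 1500 counts in the wt libraries and 2504 and 2148 in the crispant libraries, or 86.07 and 82.33 CPM against 130.3 and 133.5 CPM. Both crispant libraries stood above both wt libraries. Within a group the higher library had 1.05 times the level of the lower in wt and 1.02 times in crispants. This spread may be technical, and the family was chosen on these counts, so the separation is a description only. The means were 84.2 ± 2.64 CPM in wt and 131.9 ± 2.24 CPM in crispants (SD, n = 2). The log2 fold change was 0.65 (SE 0.08, 95% interval 0.49 to 0.81), or 1.57 times the wt level. It lay between 0.62 and 0.72 under the 13 alternative analyses, which included other tools, scalings and filters and the omission of each library.

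The other copy, *socs3* ENSDARG00000026611, showed no such separation. Its levels were 34.26 and 30.08 CPM in wt and 34.81 and 31.81 CPM in crispants, so the groups overlapped. Its log2 fold change was 0.05 (SE 0.12, 95% interval -0.19 to 0.29), and the sign of this small value turned when wt replicate 2 was left out (-0.0396) or crispant replicate 1 was (-0.015). The treatment of reads that fit both copies is not given in the sources used here, so the split of counts between the copies is uncertain to that extent.

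**Figure D1:**
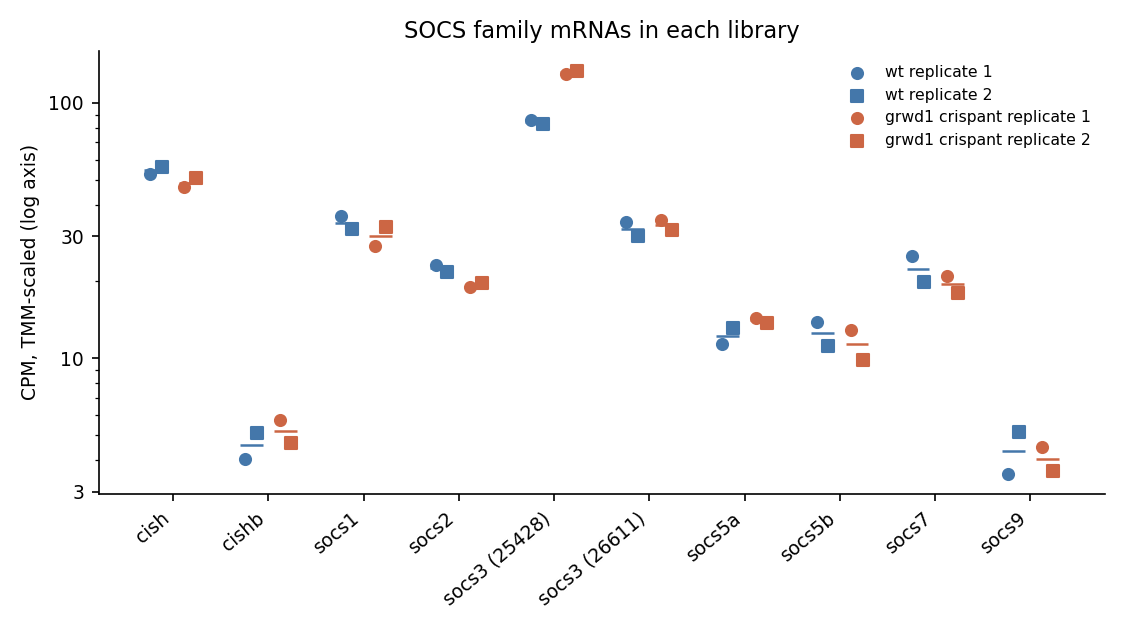
CPM (log axis) of the 10 SOCS members that passed the low-count filter, with 1 symbol per library (circles replicate 1, squares replicate 2; wt blue, *grwd1* crispants orange) and a short line at each group mean. In *socs3* ENSDARG00000025428 both crispant libraries (130.3 and 133.5 CPM) stand clear of both wt libraries (86.07 and 82.33 CPM), whereas the groups lie close together or overlap in the other members.

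The counts of the *socs3* copies were also set against each other within each library, which needs no scaling between libraries. The ratio uses the same counts as above, so it is another view of them and no further evidence. ENSDARG00000025428 had 2.51 and 2.74 times the counts of ENSDARG00000026611 in the wt libraries, and 3.74 and 4.195 times in the crispant libraries. The ratio was thus higher in both crispant libraries, at 3.97 ± 0.320 against 2.63 ± 0.159 (SD, n = 2), or 1.51 times the wt ratio. Gene lengths of the build used were not at hand, so the ratio says nothing of which copy has more mRNA molecules and serves only to compare libraries.

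The same copy took a larger share of the family's counts in crispants. Of all counts on the 11 members (4532 and 5046 in wt, 6097 and 5126 in crispants), it held 29.66% and 29.73% in the wt libraries and 41.07% and 41.90% in the crispant libraries. The group means were 29.7% ± 0.0495 in wt and 41.5% ± 0.587 in crispants (SD, n = 2). This share restates the counts of that copy given above and is no further evidence. The summed level of the family was 283.6 ± 9.33 CPM in wt and 317.9 ± 0.919 CPM in crispants. Without ENSDARG00000025428 the sum went the other way, at 204.2 and 194.6 CPM in wt and 187.0 and 185.0 CPM in crispants, or 0.933 times the wt sum. The higher family sum in crispants therefore rested on that copy.

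**Figure D2:**
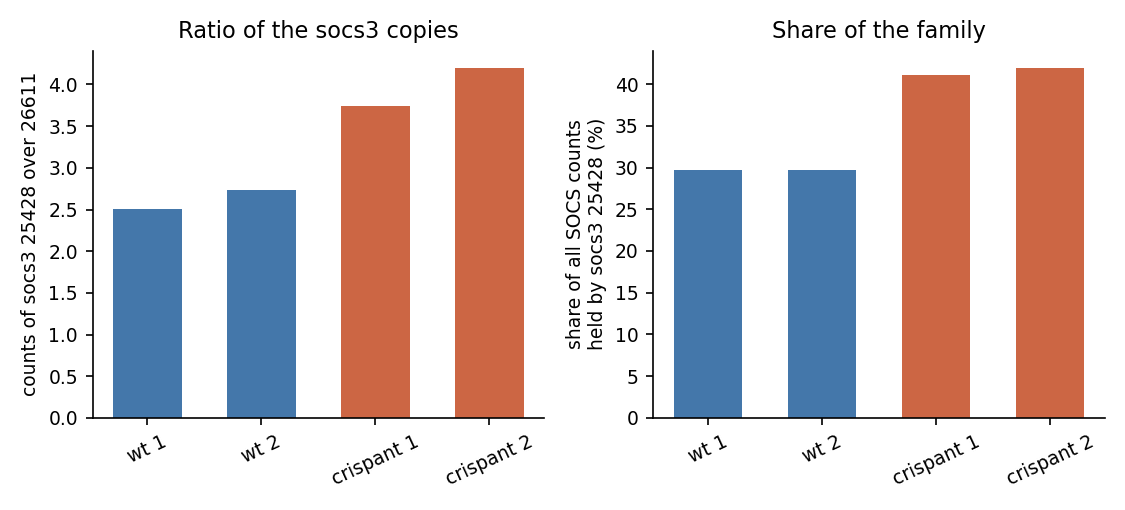
Left, counts of *socs3* ENSDARG00000025428 divided by counts of *socs3* ENSDARG00000026611 in each library; right, percentage of the counts on all SOCS members held by ENSDARG00000025428 (wt blue, *grwd1* crispants orange, 1 bar per library). The ratio is 2.51 and 2.74 in wt and 3.74 and 4.195 in crispants, and the share goes from under 30% in both wt libraries to over 41% in both crispant libraries.

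The copies of *socs1*, whose mammalian counterpart restrains interferon signalling, gave no call. *socs1* ENSDARG00000038095 had 35.93 and 32.06 CPM in wt and 27.53 and 32.80 CPM in crispants. The crispant libraries lay on either side of the lower wt library, and the log2 fold change was -0.17 (SE 0.12, 95% interval -0.42 to 0.07). Its paralog *socs1b* ENSDARG00000089873 was close to undetected and failed the low-count filter, with 1 and 0 counts in wt and 8 and 0 in crispants. All 8 of its crispant counts came from replicate 1 (95% Poisson interval 3.45 to 15.8), and the same interval for the 0 of replicate 2 reaches 3.69. No fold is given for it.

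The groups did not overlap, with crispants lower, in *socs2* and *cish*, and the second *cish* copy differed in direction. *socs2* ENSDARG00000045557, whose mouse counterpart limits growth hormone signalling, had 23.12 and 21.85 CPM in wt and 18.99 and 19.70 CPM in crispants. *cish* ENSDARG00000060316, a Stat5 target that competes for phosphorylated receptor sites in mammals, had 52.90 and 56.32 CPM in wt and 46.73 and 50.82 CPM in crispants. Every crispant library was below every wt library in both genes, but the distances were small. The log2 fold change was -0.22 for *socs2* (SE 0.15, 95% interval -0.51 to 0.07) and -0.16 for *cish* (SE 0.10, 95% interval -0.37 to 0.04). The second *cish* copy, *cishb* ENSDARG00000016773, gave 4.04 and 5.11 CPM in wt and 5.72 and 4.66 CPM in crispants, overlapping groups with a log2 fold change of 0.18 (SE 0.30).

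The members with longer N-terminal parts, *socs5a*, *socs5b* and *socs7*, are less tied to cytokine receptors, and the SOCS5 proteins of mammals and flies are known for acting on the EGF receptor. *socs5a* ENSDARG00000100717 had 11.40 and 13.12 CPM in wt and 14.41 and 13.73 CPM in crispants. These groups did not overlap, yet the lower crispant library exceeded the higher wt library by little, and the log2 fold change was 0.20 (SE 0.18, 95% interval -0.17 to 0.56). *socs5b* ENSDARG00000062745 pointed the other way, with 13.90 and 11.14 CPM in wt and 12.85 and 9.82 CPM in crispants, at a log2 fold change of -0.14 (SE 0.19, 95% interval -0.52 to 0.25). Its groups overlapped, and the estimate turned to 0.03 without wt replicate 1 and to 0.03 without crispant replicate 2.

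*socs7* ENSDARG00000077018, whose mammalian counterpart binds insulin receptor substrates and adaptor proteins, had 25.04 and 19.82 CPM in wt and 21.02 and 18.08 CPM in crispants. The wt libraries differed from each other by 1.26 times, which is more than the difference between the group means, and the log2 fold change was -0.19 (SE 0.15, 95% interval -0.49 to 0.11). *socs9* ENSDARG00000101985, a fish member of the family, was among the low ones at 3.52 and 5.16 CPM in wt and 4.48 and 3.60 CPM in crispants. Both crispant libraries fell inside the range of the wt libraries. Its log2 fold change of -0.11 (SE 0.32) ran from -0.35 to 0.20 as each library was left out.

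**Figure D3:**
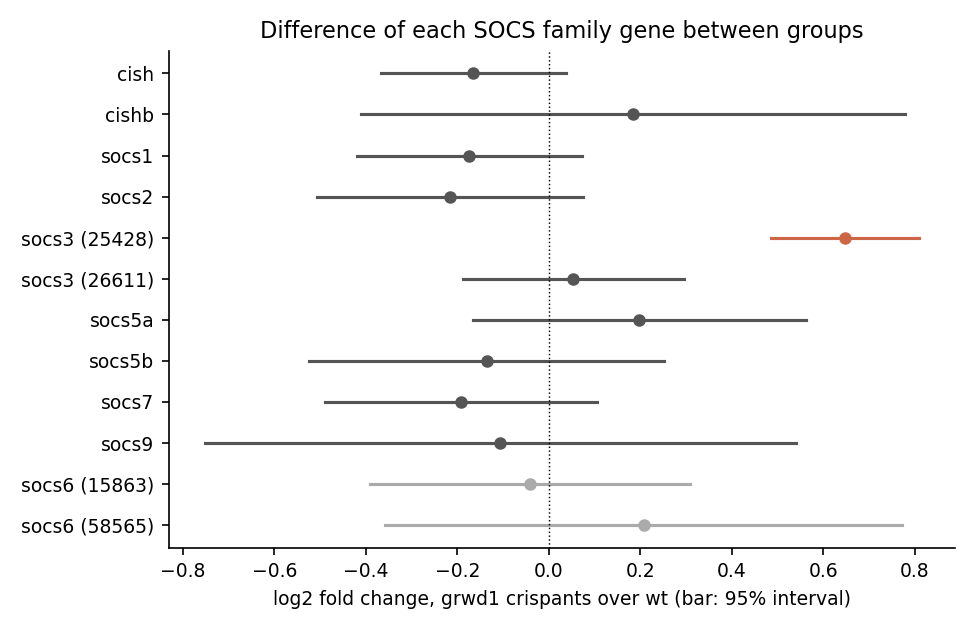
Log2 fold change of each SOCS family gene, *grwd1* crispants over wt, from edgeR, with the 95% interval as a bar (orange, called at an adjusted p of 0.05 or less; dark grey, other members; light grey, *socs6* genes outside the rule). *socs3* ENSDARG00000025428 lies at 0.65 (0.49 to 0.81) and the other members between -0.22 and 0.20, and the widest intervals are those of the low genes *cishb*, *socs9* and *socs6* ENSDARG00000058565.

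The precision of a member's estimate followed its counts. The standard error was 0.08 for *socs3* ENSDARG00000025428, with 1344 or more counts in each library, and 0.32 for *socs9*, with 55 to 94 counts. Among the 9 tested members that were not called, 3 estimates were above 0 and 6 below, within -0.22 to 0.20. Their intervals reached up to between 0.04 (*cish*) and 0.78 (*cishb*), and down to between -0.17 and -0.75.

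**Figure D4:**
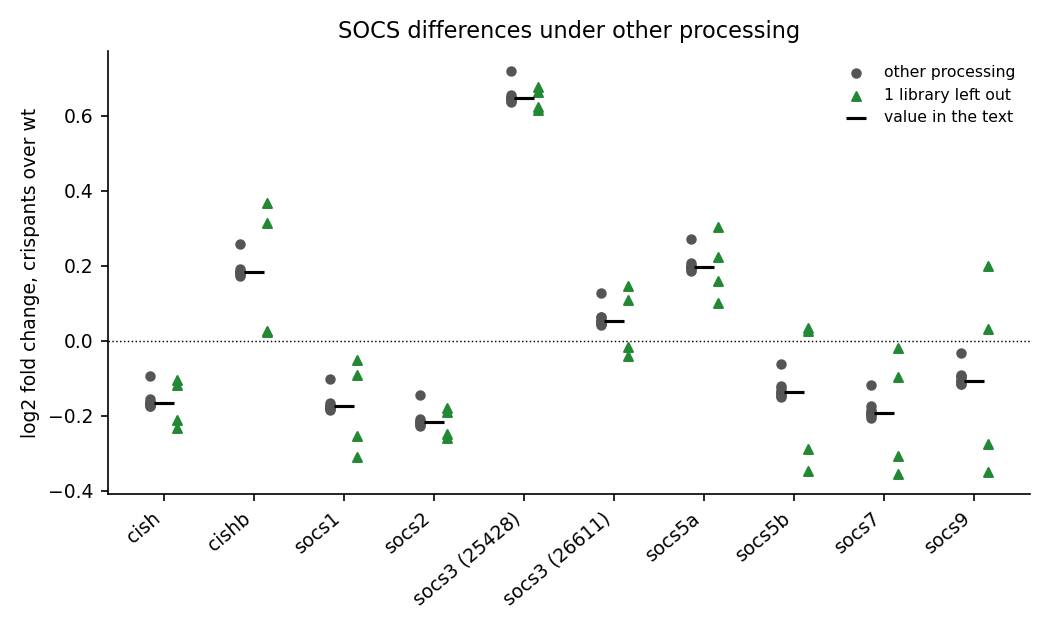
Log2 fold change of each SOCS member, crispants over wt, as given in the text (black lines), under other tools, scalings, filters and the replicate block (grey circles), and with 1 library left out (green triangles). *socs3* ENSDARG00000025428 stays between 0.62 and 0.72, and the sign depends on the library left out in *socs3* ENSDARG00000026611, *socs5b* and *socs9*.

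The family genes outside the rule gave no call either. *socs6* ENSDARG00000058565 had 3.59 and 6.97 CPM in wt and 5.78 and 6.52 CPM in crispants, with a log2 fold change of 0.21 (edgeR adjusted p = 0.699) that turned to -0.18 without wt replicate 1. *socs6* ENSDARG00000015863 had a log2 fold change of -0.04, and *socs4*, with 6 to 8 counts per library, failed the filter. By edgeR 0 of these 2 *socs6* genes had an unadjusted p under 0.05, and DESeq2 and limma-voom called 0.

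The genes most like the higher *socs3* copy were sought among 15390 genes, by Euclidean distance over the 4 libraries in log2 CPM centred on each gene's own mean. The nearest were *col4a5*, a basement membrane collagen chain (distance 0.0243), *plod1*, a collagen lysyl hydroxylase (0.0251), and *mllt3*, a chromatin reader of transcription elongation complexes (0.0290). In *col4a5* the levels were 70.58 and 68.50 CPM in wt and 109.4 and 111.1 CPM in crispants. Nearest to *socs2*, the member with the lowest fold change, were *magi1*, a scaffold protein of cell junctions (0.0129), *zmiz1*, a transcriptional coregulator (0.0155), and *scn3b*, a sodium channel subunit (0.0164). With 4 libraries, closeness in this measure describes these libraries only.

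The rest of the pathway was read from 15 lists of genes, which hold 276 genes. Of the 224 that passed the filter, 29 were higher and 12 lower by edgeR, beside 8.98% and 7.44% of all genes tested. Their median log2 fold change was 0.05, beside 0.0046 over all genes tested. The lists were written with earlier results of these data known, so nothing is read from these shares. Upstream of the SOCS proteins, few ligand mRNAs could be measured. None of the 10 interferon and interleukin 10 family ligands passed the filter. The gp130 and class I ligands gave 0 calls among 9 tested in each of the tools used, and 0 at an unadjusted p under 0.05. In edgeR *il7*, a lymphocyte growth factor, had the smallest p (log2 fold change 1.06, edgeR adjusted p = 0.26). The hormone ligands gave 0 calls among 4 by edgeR, DESeq2 and limma-voom, with 2 higher at an unadjusted p under 0.05, the first being growth hormone, *gh1* (1.07, edgeR adjusted p = 0.0782).

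Among receptors, *il6st*, which encodes gp130 itself, was higher, at 37.27 and 36.01 CPM in wt and 50.32 and 42.93 CPM in crispants (log2 fold change 0.35, edgeR adjusted p = 0.0192). The call was lost with DESeq2 (adjusted p = 0.105) and in edgeR fits without wt replicate 1 (0.0669), wt replicate 2 (0.124) or crispant replicate 1 (0.317). With *il13ra1*, a chain of the interleukin 13 receptor (0.64, edgeR adjusted p = 0.00813), 2 of 15 gp130 and class I receptors were higher and 0 lower, and DESeq2 called 0 (adjusted p = 0.0565 for *il13ra1*, which an edgeR fit without wt replicate 1 also lost, at 0.174). Of 11 interferon and interleukin 10 family receptors, 4 were higher and 0 lower, led by *crfb12* (1.45, edgeR adjusted p = 6.1e-06), *il20ra* (0.78, edgeR adjusted p = 0.000164) and *crfb4* (1.07, edgeR adjusted p = 0.00167), the last lost without wt replicate 1 (0.0727) or crispant replicate 2 (0.0572). The 5 hormone receptors coupled to Jak2 gave 0 calls by edgeR and DESeq2, with 1 higher and 1 lower at an unadjusted p under 0.05. *ghrb*, a growth hormone receptor on which SOCS2 acts in mammals, came nearest (-0.20, edgeR adjusted p = 0.0665) and was called lower by limma-voom (0.0451).

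Of the kinases and transcription factors that SOCS proteins oppose, *stat3*, the main Stat of gp130 signals, was higher in both crispant libraries. It had 30.16 and 27.55 CPM in wt and 41.47 and 39.33 CPM in crispants, a log2 fold change of 0.49 (SE 0.12, edgeR adjusted p = 0.00146), and was called under each of the 13 alternatives. *jak1*, a kinase bound to gp130 and to interferon receptors, was higher by 0.28 (edgeR adjusted p = 0.0123), a call lost with DESeq2 (0.067) and in edgeR fits without wt replicate 2 (0.334) or crispant replicate 1 (0.0916). It was the 1 call among 5 Jak kinases. *stat6*, the Stat of interleukin 4 and 13 signals, was higher by 0.43 (edgeR adjusted p = 0.0379), which no fit without wt replicate 1 (0.0566), wt replicate 2 (0.209) or crispant replicate 1 (0.65) called, nor DESeq2 (0.202). In all, 2 of 8 Stat genes were higher.

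Genes known as targets of these factors were counted by branch. Of 36 Stat3 and acute phase targets tested, 9 were higher and 1 lower, with a median log2 fold change of 0.10. The names *saa*, *crp* and *a2m* matched no gene by symbol, so these are not in the list. *cebpb*, a transcription factor of the acute phase response, was higher by 0.44 (edgeR adjusted p = 3.73e-05), as were *fosl1* (0.87, edgeR adjusted p = 0.000333) and *fos* (0.47, edgeR adjusted p = 0.00149), subunits of the AP-1 factor. The call of *fos* was lost in fits without wt replicate 2 (0.0609) or crispant replicate 2 (0.0812). *myc* ENSDARG00000045695, a growth regulator, was lower (-0.32, edgeR adjusted p = 0.0327). That call was lost with DESeq2 (adjusted p = 0.0928), with edgeR scaled by library totals (0.121) and with each library left out in turn. The other *myc* gene, ENSDARG00000007241, was not called (-0.09). DESeq2 called 5 of these targets higher and 0 lower.

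Of 30 interferon targets, 3 were higher and 10 lower, with a median of -0.22. The 3 higher were *irf1b*, *gbp2* and *tap1*. *irf1b*, a transcription factor induced by interferon gamma, was higher by 1.42 (edgeR adjusted p = 2.95e-07). *gbp2*, a guanylate binding protein, was higher by 2.06 (edgeR adjusted p = 0.000807). *tap1*, a peptide transporter for antigen presentation, was higher by 1.71 (edgeR adjusted p = 0.00835), a call lost without wt replicate 2 or crispant replicate 1. Counts were low in *gbp2* (19 and 11 in wt, 81 and 53 in crispants) and *tap1* (20 and 13 in wt, 68 and 47 in crispants). Led by *ifit14* (-1.45, edgeR adjusted p = 2.28e-07), *rsad2* (-1.50, edgeR adjusted p = 4.3e-07) and *ifit15* (-1.31, edgeR adjusted p = 4.27e-06), the lower ones included antiviral effectors. Without wt replicate 2, 6 of the list were lower.

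**Figure D5:**
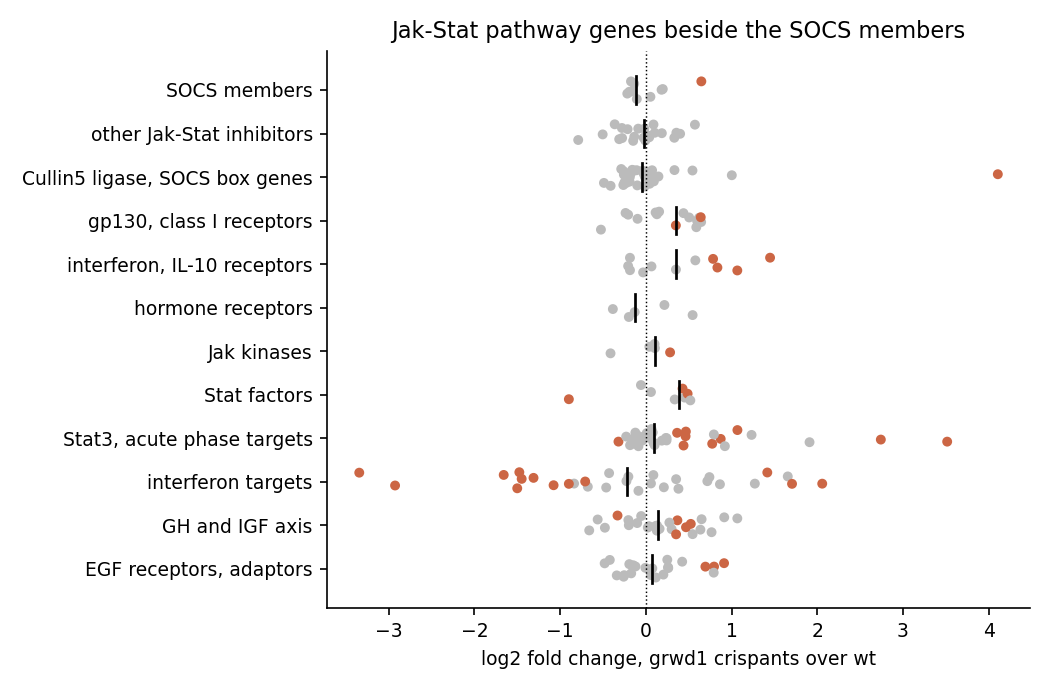
Log2 fold change, *grwd1* crispants over wt, of each tested gene of the SOCS members and of 11 pathway lists (points; orange, called by edgeR at an adjusted p of 0.05 or less), with a black line at each list's median. The SOCS members hold 1 orange point, the Stat3 and acute phase targets 10 and the interferon targets 13, of which 10 lie below 0.

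Other inhibitors of the pathway, and genes of the Cullin5 ligase or with a SOCS box, gave few calls. Among 22 other negative regulators of Jak-Stat signalling, such as phosphatases and PIAS proteins, edgeR, DESeq2 and limma-voom called 0, and 1 was lower at an unadjusted p under 0.05. That gene was *ptpn2a*, a phosphatase of Jak and Stat proteins (-0.50, edgeR adjusted p = 0.118), which was called without wt replicate 1 (0.0477). Of 35 tested genes of the Cullin5 ligase and of other proteins with a SOCS box, 1 was higher and 0 lower, with 4 lower at an unadjusted p under 0.05 and 0 called lower by DESeq2 or limma-voom. The higher gene, *spsb2*, encodes a SOCS box protein with a SPRY domain. It had 2 and 0 counts in wt and 18 and 22 in crispants. Its call (edgeR adjusted p = 0.00275) was lost with DESeq2 and in edgeR fits without wt replicate 2 or crispant replicate 2. The gene dropped out when at least 10 counts were required in each library.

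The branches that *socs2*, *cish*, *socs5a* and *socs5b* are known to limit were read in the same way. In the growth hormone and insulin-like growth factor axis 4 of 26 were higher and 1 lower, with a median log2 fold change of 0.15. Among the higher was *igfbp1* (0.47, edgeR adjusted p = 4.68e-06), which binds insulin-like growth factors. *igfbp5* ENSDARG00000025348 (0.37, edgeR adjusted p = 0.00345) and *igf2b* (0.35, edgeR adjusted p = 0.012) were higher. *irs2* ENSDARG00000037099, an insulin receptor substrate, was lower (-0.33, edgeR adjusted p = 0.00289). Each of these 3 calls was lost without wt replicate 2 (0.0746, 0.117 and 0.116), and also without crispant replicate 1 for *igfbp5* (0.0957) and crispant replicate 2 for *igf2b* (0.112) and *irs2* (0.0815). DESeq2 did not call *igf2b* (0.0622). The other genes with these symbols, *igfbp5* ENSDARG00000039264 (0.65) and *irs2* ENSDARG00000075282 (0.02), were not called by edgeR. Of 22 genes of EGF receptors and their adaptors 3 were higher and 0 lower, namely *erbb3* (0.80, edgeR adjusted p = 1.04e-05), *erbb3b* (0.91, edgeR adjusted p = 0.00176), lost without wt replicate 1 (0.217), and *erbb2* (0.69, edgeR adjusted p = 0.00189), lost without crispant replicate 1 (0.189), all EGF receptor family members.

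Markers of several tissues moved with the groups in these whole larvae, and the SOCS values stand beside them. Of 18 enterocyte markers 15 were higher and 1 lower, and their summed level was 1757 to 1781 CPM in wt and 2567 to 2667 CPM in crispants. Epidermis and ionocyte markers (7 higher and 2 lower of 10) summed to 5595 to 5736 CPM in wt and 6434 to 6811 CPM in crispants, whereas neuron and glia markers (0 higher and 13 lower of 17) summed to 2860 to 2866 CPM in wt and 2302 to 2344 CPM in crispants. Markers of blood cells, in which SOCS genes are best known, had low summed levels in both groups, and the neutrophil and macrophage markers *mpx*, *mpeg1.1*, *mpeg1.2* and *mfap4.1* matched no gene by symbol and are not in the sums. Myeloid markers (1 higher and 1 lower of 15 tested) summed to 47.7 to 53.2 CPM in wt and 46.0 to 46.7 CPM in crispants, with 1 *mfap4* copy at 0 in every library. Lymphoid markers summed to 12.7 to 12.9 CPM in wt and 10.3 to 11.2 CPM in crispants, with *ighd* and *cd247* at 0, and gave 0 calls of 6 tested in each of the tools used and 0 at an unadjusted p under 0.05. Hepatocyte markers (8 higher and 2 lower of 16) summed to 6317 to 6336 CPM in wt and 5854 to 6145 CPM in crispants, and skeletal muscle markers (3 higher and 0 lower of 15) to 46926 to 48710 CPM in wt and 46744 to 49312 CPM in crispants. The part of these tissues in the level of the higher *socs3* copy was not tested.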

How the data were processed

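Libraries of whole larvae at 8 dpf were made with a stranded kit for total RNA with ribosomal RNA removal, and the labels also call them polyA-enriched. The deposited table holds raw counts per gene. Per the submitters' processing notes, the authors used FastQC, Trimmomatic 0.39, HISAT2, featureCounts, DESeq2 and the GRCz11 build. No source used here gives the annotation release, the strand setting or the handling of multimapping reads. Overlapping and antisense genes are uncertain for that reason.

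Of 32667 lines, 147 were exact repeats and were dropped. Symbols came from a name table (29201 of 32520 genes, 89.8%) and older names from a RefSeq gene table of GRCz12tu, used for names only. Groups and replicates were taken from the labels. In R 4.3.3, edgeR 4.0.16 was run with filterByExpr, TMM factors and the quasi-likelihood test, with group as the only term, all 4 libraries and Benjamini-Hochberg adjustment over 20479 genes. The SE is the size of the log2 fold change over the square root of F. Total counts were 15916216 to 18619802, and intervals on counts cover counting error only.

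The members, lists and tests were chosen with earlier results of these data known. Lists were written from textbook knowledge, and 1 lymphoid name that matched an unrelated gene was removed. All members were named. From each pathway list, up to 3 genes called with the smallest p in each direction were named, or, with none called, the gene with the smallest p. The result of 1 gene under this rule is not reported here. The 3 genes nearest to the members with the highest and the lowest fold change were sought among genes whose log2 CPM averaged 1 or more, leaving out symbols that start with si:, zgc: or LOC. The alternatives were DESeq2 1.42.0, limma-voom (limma 3.58.1), size factors by RLE, library totals, TMM without the 50 most abundant genes, a threshold of 0.01, a minimum of 10 counts in each library or no low-count filter, the replicate number as a block, and fits that omit 1 library. Where a group kept 1 library, that library was assumed to vary like the other group. A planned comparison of SOCS protein and promoter sequences was not run.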

Additional observations from a re-analysis of the deposited data

How the results depend on the processing

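The 13 alternatives refit the same 4 libraries on which the members were chosen, so their values describe the processing and are no further evidence. *socs3* ENSDARG00000025428 ran from 0.62 to 0.72, and 124 of 130 member values kept their sign and their side of the threshold. The other 6, none of them called, turned sign with 1 library left out. The values ran from -0.0396 to 0.146 for *socs3* ENSDARG00000026611, from -0.348 to 0.0349 for *socs5b* and from -0.35 to 0.20 for *socs9*. For *socs6* ENSDARG00000058565, outside the rule, they ran from -0.18 to 0.77. The median of the members was -0.12 and ran from -0.13 to 0.03.

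Over all genes, 1839 higher calls became 1107 with DESeq2 and 1193 at an adjusted p of 0.01. The 1524 lower calls became 938 at 0.01, 1000 with library totals and 935 to 1327 with 1 library left out. The 29 pathway genes called higher became 17 with DESeq2 and 19 to 22 with 1 library left out, and the 12 called lower became 6 to 11. Of 415 values of named pathway genes, 367 kept sign and call, 45 lost the call, 2 gained it and 1 turned. The cause of these changes was not tested.

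With the replicate number as a block (replicate block), 1809 genes were higher and 1451 lower, and *socs3* ENSDARG00000025428 stood at 0.65. Deviations of same-numbered libraries correlated at -0.0199 over 17284 genes, so no shared deviation was seen. With 2 libraries in each group this value cannot show whether the libraries were paired, which the labels do not state. With 2 libraries in each group, small differences of members with few counts, such as *socs9* and *cishb*, could not be resolved.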
